A study of Mus musculus with 9 samples.

Results

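The genes of 10 heat shock proteins and chaperones were followed through splenic type 2 conventional dendritic cells (cDC2s), dendritic cells that mainly prime CD4 T cells. The 10 members, Hspa1a, Hspa1b, Hspa4, Hspa8, Hsp90aa1, Hsp90ab1, Hspd1, Hspe1, Hsph1 and Dnajb1, were chosen by name, and all 10 are among the 14209 genes of the count table. All 10 also passed the filter on low counts, which left 12043 genes for testing. RNA was sequenced from 3 groups of C57BL/6 mice with 3 libraries each. The wild-type group (WT) carries no targeted allele in the labels. The CD97-deficient group (CD97 knockout) lacks CD97, an adhesion G protein-coupled receptor encoded by Adgre5 (Adgre5-/-). The Gα13-deficient group (Gα13 knockout) carries floxed alleles of Gna13, which encodes the G protein subunit Gα13, together with CD11c-Cre, whose promoter is active in dendritic cells and in part of the macrophages. The genotype label of the Gα13-deficient libraries also names Adgre5 deficiency. The sources used here give no age, sex or sorting scheme.

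Heat shock proteins hold other proteins in a foldable state and help them refold or assemble. The cytosolic HSP70 proteins bind exposed hydrophobic stretches in cycles of ATP hydrolysis that J proteins start and nucleotide exchange factors end, and HSP90 takes over many signalling proteins at a later stage. Heat shock factor 1 (HSF1), a transcription factor held inactive in unstressed cells, raises the inducible members within minutes of heat, oxidative stress or other damage to proteins. Hspa1a and Hspa1b encode the inducible HSP70, Hspa8 the constitutive HSP70 (HSC70), Hspa4 and Hsph1 exchange factors of the HSP110 family, Hsp90aa1 the inducible and Hsp90ab1 the constitutive cytosolic HSP90, and Dnajb1 an HSP40 J protein. Hspd1 and Hspe1 encode HSP60 and its lid HSP10, which form the chaperonin of the mitochondrial matrix, so these members are not cytosolic chaperones.

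Library totals ran from 5679946 to 13904646 counts, so that 3 counts stood for 0.216 to 0.528 CPM, the count scaled to the library total. In the Gα13-deficient group the level of Gna13 fell by 1.09 (log2) (edgeR quasi-likelihood adjusted p = 6.8e-05). The gene of CD97, listed as Cd97, had a log2 fold change of -0.89 in the CD97-deficient group that did not pass the threshold of 0.05 (adjusted p = 0.105), and -0.13 in the Gα13-deficient group (adjusted p = 0.816). All 12 fixed cDC2 markers were tested and none was at 0 in any library, and their summed level was 19400 to 22400 CPM. In the Gα13 knockout 2 were called higher (Itgax, Itgam) and 3 lower (Cd4, Esam, Irf4), against 11% of genes, and 0 in the CD97 knockout. The 8 cDC1 markers summed to 140 to 233 CPM in WT, 156 to 244 in the CD97 knockout and 224 to 284 in the Gα13 knockout. Of these Xcr1 was called higher in both knockouts, and Batf3 lower in the Gα13 knockout. The 19 macrophage markers in the table, also never at 0, summed to 873 to 1980 CPM in WT, 993 to 2550 in the CD97 knockout and 1150 to 1560 in the Gα13 knockout. Emr1 and Cd209b among them were called lower in both knockouts, and Cd68 higher in the CD97 knockout. The 9 T and NK cell markers summed to 1.19 to 13.2 CPM, with Cd3g, Ncr1, Klrb1c, Nkg7 and Prf1 at 0 in some libraries. The 8 B cell markers summed to 56.2 to 125 CPM, and Cr2 was called lower in the Gα13 knockout. The 9 plasmacytoid dendritic cell markers summed to 232 to 336 CPM in WT, 323 to 375 in the CD97 knockout and 369 to 475 in the Gα13 knockout, where 2 were called higher. The 5 monocyte and neutrophil markers in the table summed to 29.8 to 62.9, 36.7 to 54.1 and 63.2 to 90.6 CPM, with S100a9 at 0 in some libraries. The Gα13-deficient libraries lay above all WT libraries in both sums, and the part of these cells in the results below was not tested. By sex-linked genes, WT replicate 2, Gα13-deficient replicate 2 and all CD97-deficient libraries had the female pattern and the others the male one.

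Hspa1a and Hspa1b are neighbouring copies on chromosome 17 (mm10, minus strand, 34969190 to 34972156 and 34956436 to 34959238). Their upstream sequences are shown because these genes had the widest swings between libraries of all members, and because they show how alike the copies are. The 250 bases before each start site are from the RefSeq promoter table (GRCm38.p6, the assembly of mm10), at chr17:34972157-34972406 and chr17:34959239-34959488 on the minus strand. They differ at 3 of 250 positions (98.8% identical). Capitals mark the match to a pair of inverted heat shock element units, searched as GAANNTTC or TTCNNGAA, a pattern that reads the same on either strand in each case. The match starts 104 bases before the start site in both.
Hspa1a: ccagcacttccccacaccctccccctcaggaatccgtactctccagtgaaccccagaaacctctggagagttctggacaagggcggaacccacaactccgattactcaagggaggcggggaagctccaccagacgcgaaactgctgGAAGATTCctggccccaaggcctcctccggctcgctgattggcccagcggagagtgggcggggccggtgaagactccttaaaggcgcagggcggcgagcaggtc
Hspa1b: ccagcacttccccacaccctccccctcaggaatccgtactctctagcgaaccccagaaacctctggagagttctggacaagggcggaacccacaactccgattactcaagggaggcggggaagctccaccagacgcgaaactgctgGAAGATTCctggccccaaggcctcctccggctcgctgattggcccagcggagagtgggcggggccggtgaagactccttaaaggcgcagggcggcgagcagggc

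A run of 3 units, GAANNTTCNNGAA or TTCNNGAANNTTC, was the stricter pattern searched. Only exact matches were counted, so heat shock elements with imperfect units are missed, in the members and in all other windows. The pair of units was found in 4946 of the 32851 RefSeq windows of 300 bases (250 before to 50 after each start site; 15.1%), and the triple in 198 (0.603%). RefSeq windows were matched for 7 of the 10 members by symbol, and Hspa8, Hsp90aa1 and Hsp90ab1 had no entry. Hspa1a and Hspa1b each held 1 exact pair and no exact triple, and imperfect units in them were not searched. Hspe1 held 3 overlapping pairs, which together make 2 triples, and the first bases of the pairs lie 89 to 79 bases before its start site. Hspe1 and Hspd1 are transcribed away from each other on chromosome 1 (Hspd1 at 55077835 to 55088243 on the minus strand, Hspe1 at 55088132 to 55091307 on the plus strand), and their annotated exons overlap at the shared promoter. The Hspe1 element, at chr1:55088053-55088082 on the plus strand and inside a 5′ exon of Hspd1, is printed as the densest run of exact units in any member with a window.
Hspe1: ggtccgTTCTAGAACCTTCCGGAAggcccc
Here the capitals cover all 3 overlapping pairs. Of the 2 start sites listed for Hspd1, the window of one held the same 3 pairs and the window of the other none. Hsph1 held 3 pairs and 1 triple. Neither window of Dnajb1 nor that of Hspa4 held a match. The 110 bases before the Hspa4 start site, at chr11:53300480-53300589 on the minus strand, are shown for contrast, since Hspa4 was the steadiest member in the counts.
Hspa4: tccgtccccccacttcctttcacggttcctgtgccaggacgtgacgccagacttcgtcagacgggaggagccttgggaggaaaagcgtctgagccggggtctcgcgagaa
A match of letters is a description of the sequence, and binding was not measured here.

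Among the members, only Hspa4 passed the main test, which left the libraries unpaired, in a comparison with WT, and it passed in both. For 8 of the others, Hspe1 being the exception, the SD within groups exceeded the SD between group means. In the CD97-deficient group 1 of 10 members was called, against 8.53% of the 12043 genes tested by edgeR's quasi-likelihood test (4.84% called higher, the direction of the member). In the Gα13-deficient group 1 of 10 was called, against 11% of genes (5.74% called higher). Between the knockouts 0 of 10 was called, against 0.0498% of genes. DESeq2 called 1, 2 and 0 members in these comparisons. Against WT it called 1296 and 1560 of all genes. With the replicate number as a block over all 9 libraries, Hspe1 also passed in Gα13-deficient cells (edgeR adjusted p = 0.0399). In that blocked fit Hspa4 passed in Gα13-deficient cells (edgeR adjusted p = 0.0355) but not in CD97-deficient cells (adjusted p = 0.0501). The median log2 fold change of the members was -0.12 in CD97-deficient cells and 0.27 in Gα13-deficient cells, beside 0 and -0.01 over all genes tested. Standard errors ran from 0.07 to 1.87 on the log2 scale among members for CD97 deficiency, so the precision of the comparison depended on the member. In these bulk libraries, fewer cells that express a gene and less RNA of it per cell cannot be told apart. The comparisons with WT use the same WT libraries.

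**Figure D1:**
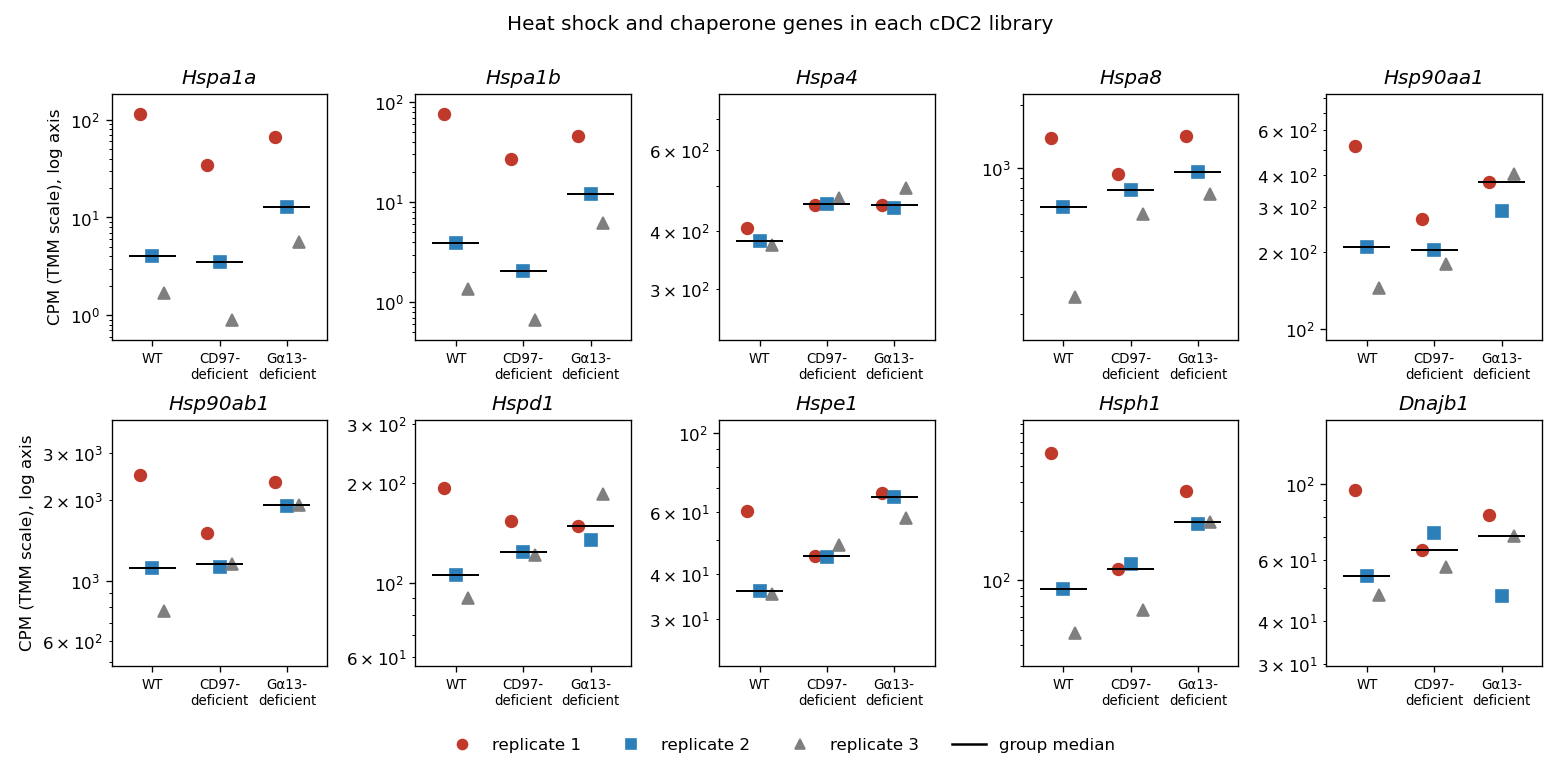
Level of each member in each library, in CPM scaled by TMM factors (log axis), with symbols for the replicate number and a line at the group median. WT replicate 1 is the highest and WT replicate 3 the lowest WT library for all 10 genes, and Hspa4 alone is separated from WT in both knockouts.

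The inducible HSP70 genes had the widest spread. Hspa1a had 1052, 30 and 10 counts in WT replicates 1 to 3, or 115, 4.08 and 1.70 CPM (TMM scale, as for all CPM values of single genes here). It had 34.5, 3.52 and 0.894 CPM in the CD97 knockout and 65.8, 12.7 and 5.64 in the Gα13 knockout. In each group replicate 1 stood far above the others, and the groups overlapped throughout. The highest WT library held 67.6 times the level of the lowest, the highest CD97-deficient one 38.6 times and the highest Gα13-deficient one 11.7 times. Group means were 40.2 ± 64.6, 13 ± 18.7 and 28 ± 32.9 CPM (SD, n = 3 each), so that each SD exceeded its mean. The log2 fold change was -1.65 ± 1.87 (SE) in CD97-deficient cells (95% interval -6.18 to 2.88, edgeR adjusted p = 0.645). It was -0.56 ± 1.77 in Gα13-deficient cells (interval -4.86 to 3.74, edgeR adjusted p = 0.881). No change of Hspa1a in either direction was detectable at this spread, and the intervals include changes of several log2 units either way.

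Hspa1b followed its neighbour library by library. It had 75.9, 3.94 and 1.36 CPM in WT, 26.9, 2.05 and 0.67 in the CD97 knockout and 45.9, 12.0 and 6.21 in the Gα13 knockout. Its log2 fold changes were -1.48 ± 1.76 and -0.39 ± 1.67 (SE; edgeR adjusted p = 0.66 and 0.912). The copies share much of their transcript: 58.8% of the 50-base windows of the Hspa1a transcript also occur in Hspa1b, and 62.3% of those of Hspa1b in Hspa1a. How the counting treated reads that match both is not stated in these sources, so the split between the copies is uncertain. Hspa1a took 47.6% (39.8 to 55.5) to 63.2% (46 to 78.2) of the pair's counts (95% exact Clopper-Pearson intervals, which cover counting error only). With the pair summed to 1 row, an alternative chosen after the data had been seen, the log2 fold changes were -1.57 ± 1.84 and -0.48 ± 1.76 (SE; edgeR adjusted p = 0.656 and 0.897). The sum thus had the same width of error as each copy.

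Without WT replicate 1, the log2 fold change of Hspa1a turned to 2.13 in CD97-deficient cells and 3.22 in Gα13-deficient cells, and that of Hspa1b to 1.85 and 2.95. None of these passed the threshold. The sign of these genes also turned under other settings. In the 6 libraries other than replicate 1 of each group, the CD97-deficient value was -0.47 for Hspa1a and -1.05 for Hspa1b, and the Gα13-deficient value was 1.59 and 1.71. In the fit of WT and CD97-deficient libraries alone with the replicate number as a block, Hspa1a fell by 1.23 (edgeR adjusted p = 0.0498) and Hspa1b fell by 1.29 (adjusted p = 0.011). Same-number libraries of these groups did not deviate together over all genes, and with all 9 libraries in the blocked fit neither gene passed (adjusted p = 0.278 and 0.303).

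Hspa8, on chromosome 9 (40800984 to 40810087, plus strand), encodes the HSP70 that is made without stress and strips clathrin from vesicles. It had 1390, 654 and 240 CPM in WT, 938, 788 and 604 in the CD97 knockout and 1420, 963 and 748 in the Gα13 knockout. All groups overlapped, and in each of them replicate 1 was the highest library and replicate 3 the lowest. The log2 fold changes were 0.03 ± 0.62 and 0.46 ± 0.62 (SE; edgeR adjusted p = 0.981 and 0.706). The count is also the least certain by sequence, since 74.8% of the 50-base windows of its transcript occur in other annotated genes, chiefly the pseudogene Gm15459 (70%). Its introns host the small nucleolar RNA genes Snord14c, Snord14d and Snord14e, which some annotated Hspa8 exons overlap.

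The exchange factors of the HSP110 family behaved differently from each other. Hspa4 (chromosome 11, 53259814 to 53300457, minus strand) had 406, 381 and 373 CPM in WT, 456, 459 and 471 in the CD97 knockout and 455, 450 and 495 in the Gα13 knockout. Every knockout library lay above every WT library, and the knockouts overlapped each other. Hspa4 rose by 0.26 ± 0.07 on the log2 scale (SE; interval 0.1 to 0.41, edgeR adjusted p = 0.041) in CD97-deficient cells, a ratio of 1.2. It rose by 0.27 ± 0.07 (interval 0.12 to 0.43, adjusted p = 0.0264) in Gα13-deficient cells, a ratio of 1.21. Between the knockouts the log2 difference was 0.01 ± 0.07 (interval -0.14 to 0.17, edgeR adjusted p = 0.996). Hspa4 was 1 of the 14.7% of genes whose CD97-deficient libraries all lay above WT, and 1 of the 15.5% for Gα13 deficiency. No 50-base window of its transcript occurs in another annotated gene.

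The Hspa4 calls lay close to the threshold. In CD97-deficient cells the call held in 4 of 20 alternatives. Leaving out any library other than Gα13-deficient replicate 3 moved the adjusted p above 0.05 (range over the 9 such fits 0.0383 to 0.151), while the log2 fold change stayed at 0.23 to 0.29. In Gα13-deficient cells the call held in 12 of 21 alternatives. It was lost without WT replicate 2 or 3 or any 1 of the Gα13-deficient libraries (range over all 9 fits 0.0238 to 0.0914), and also with the replicate number as a block in the fit of these groups alone (adjusted p = 0.0819). The log2 fold change was 0.23 to 0.31 over those 9 fits. The fixed cell cycle list moved with Hspa4: 29 of its 30 tested genes were called higher in each comparison, with medians of 0.95 and 1.04 on the log2 scale. The mean deviation of that list was -0.89 to -0.4 in WT, 0.23 to 0.35 in the CD97 knockout and 0.2 to 0.52 in the Gα13 knockout. Its part in the Hspa4 difference was not tested.

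Hsph1 (chromosome 5, 149614287 to 149636376, minus strand), the stress-inducible exchange factor, was among the most variable members. It had 599, 88.6 and 47.6 CPM in WT, 117, 126 and 65.7 in the CD97 knockout and 354, 220 and 227 in the Gα13 knockout. WT replicate 1 was the highest of the 9 libraries and WT replicate 3 the lowest. The log2 fold changes were -1.26 ± 0.95 (SE; interval -3.57 to 1.04, edgeR adjusted p = 0.473) and 0.11 ± 0.92 (interval -2.13 to 2.35, adjusted p = 0.955). Without WT replicate 1 they were 0.58 and 1.96, neither past the threshold.

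The cytosolic HSP90 genes had the same order of libraries in WT. Hsp90aa1, the inducible form (chromosome 12, 110690605 to 110702728, minus strand), had 518, 210 and 145 CPM in WT, 270, 204 and 179 in the CD97 knockout and 375, 289 and 402 in the Gα13 knockout. WT libraries spanned both knockout groups, while every Gα13-deficient library lay above every CD97-deficient one. Its log2 fold changes against WT were -0.42 ± 0.48 and 0.28 ± 0.48 (SE; edgeR adjusted p = 0.646 and 0.766). Of its 50-base windows 58.5% occur in other annotated genes, chiefly Gm12346 (51.5%), so its count is uncertain.

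Hsp90ab1, the constitutive form (chromosome 17, 45567775 to 45573271, minus strand), had 2480, 1120 and 770 CPM in WT, 1510, 1130 and 1160 in the CD97 knockout and 2340, 1900 and 1910 in the Gα13 knockout. WT replicate 1 lay above all other libraries and the other WT libraries below them all. Only 4.49% of its 50-base windows occur in another annotated gene. The log2 fold changes were -0.20 ± 0.43 and 0.50 ± 0.43 (SE; edgeR adjusted p = 0.815 and 0.529). Without WT replicate 1 the Gα13-deficient group was higher than WT by 1.12 (adjusted p = 0.0188), with the remaining WT arm resting on 2 libraries.

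The J protein Dnajb1, which hands substrates to HSP70, lies on chromosome 8 (83608193 to 83612653, plus strand). It had 95.6, 54.1 and 47.6 CPM in WT, 64.4, 72.1 and 57.3 in the CD97 knockout and 81, 47.3 and 70.5 in the Gα13 knockout. The groups overlapped fully, with means of 65.7 ± 26, 64.6 ± 7.38 and 66.2 ± 17.2 CPM (SD, n = 3 each). Its log2 fold changes were -0.04 ± 0.29 and 0.01 ± 0.29 (SE; edgeR adjusted p = 0.956 and 0.986), with intervals of -0.72 to 0.64 and -0.67 to 0.69. Group means of Dnajb1 were the closest of all members, with an SD between groups of 0.02 on the log2 scale.

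The mitochondrial chaperonin genes moved less between libraries than Hspa1a, Hspa1b, Hsph1 and Hsp90aa1, and about as much as Dnajb1. Over the 9 libraries the highest level was 2.15 times the lowest for Hspd1, 1.92 times for Hspe1 and 2.02 times for Dnajb1. Hspd1 had 193, 106 and 89.9 CPM in WT, 154, 124 and 121 in the CD97 knockout and 148, 135 and 185 in the Gα13 knockout. WT replicate 1 lay above all knockout libraries and the other WT libraries lay below them. Its log2 fold changes were 0.03 ± 0.29 and 0.26 ± 0.29 (SE; edgeR adjusted p = 0.965 and 0.63). Hspe1 had 60.3, 36.0 and 35.3 CPM in WT, 45.0, 44.8 and 48.4 in the CD97 knockout and 67.9, 66.1 and 57.8 in the Gα13 knockout. Gα13-deficient libraries lay above all others except WT replicate 1, which exceeded the lowest of them. The log2 fold change of Hspe1 was 0.06 ± 0.18 in CD97-deficient cells (SE; edgeR adjusted p = 0.87). In Gα13-deficient cells it was 0.53 ± 0.17 (interval 0.15 to 0.91, edgeR adjusted p = 0.071), which missed the threshold.

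Hspe1 in Gα13-deficient cells passed in 6 of 21 alternatives, among them 1 of the 9 that dropped a single library (adjusted p over those 9 was 0.000996 to 0.196). Same-number WT and Gα13-deficient libraries deviated together over all genes, and with the replicate number as a block the log2 fold change was 0.56 (edgeR adjusted p = 0.0399, all 9 libraries) or 0.57 (adjusted p = 0.0318, these groups alone). DESeq2 gave 0.53 (adjusted p = 0.0405) and library totals in place of TMM factors 0.57 (edgeR adjusted p = 0.0399). Without WT replicate 1 it was 0.84 (edgeR adjusted p = 0.000996), and Hspd1 then passed too with 0.67 (adjusted p = 0.0217). It did not pass in these groups alone (adjusted p = 0.135), with the immediate early level in the model (0.131) or in the male-pattern libraries (0.444). Of the 50-base windows of each gene's transcript 44.8% occur in other annotated genes, and where their exons overlap, counts made without strand would not tell them apart. The use of strand in the counting is not stated in these sources.

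**Figure D2:**
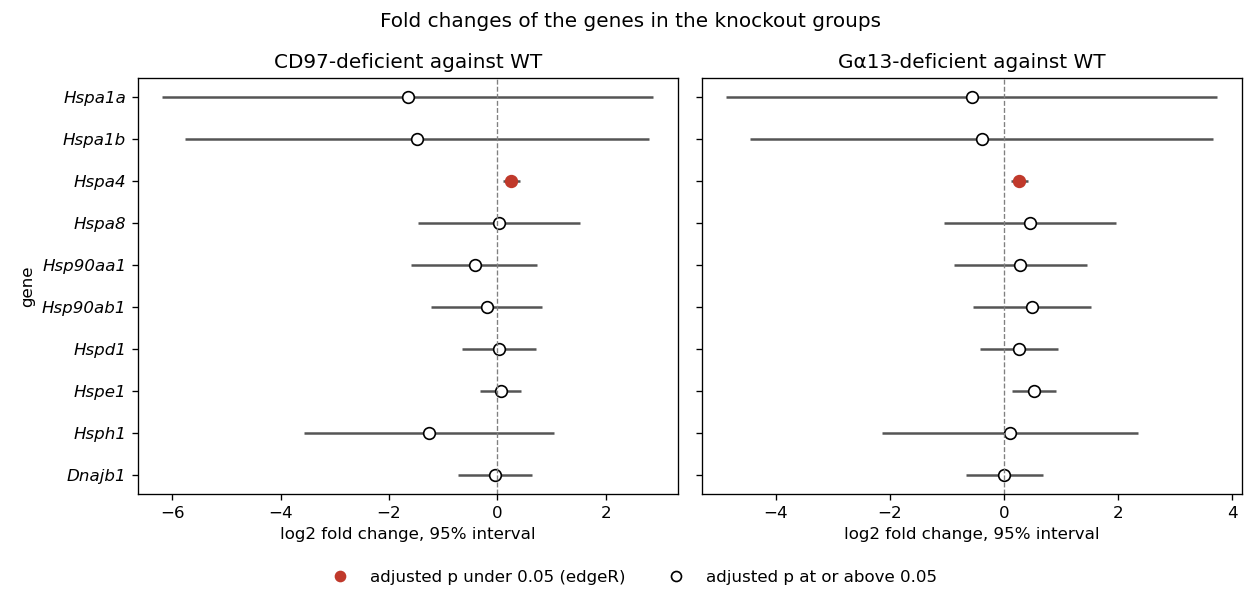
Log2 fold change of each member in each knockout against WT (points) with its 95% interval (bars), from the edgeR fit of all 9 libraries. Filled points are those with an adjusted p under 0.05, which is Hspa4 alone in both panels, and the bars of Hspa1a and Hspa1b are the widest.

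Between the knockouts, all 10 fitted differences were on the side of higher levels in Gα13-deficient cells, with a median of 0.58 on the log2 scale, and none passed the test. The median over all genes tested was 0. For 4 members, Hsp90aa1, Hsp90ab1, Hspe1 and Hsph1, every Gα13-deficient library lay above every CD97-deficient one, against 7.16% of genes. Hsph1 differed by 1.38 ± 0.95 (SE; interval -0.93 to 3.69, edgeR adjusted p = 0.927). Hsp90aa1 differed by 0.71 ± 0.48 (adjusted p = 0.924) and Hsp90ab1 by 0.70 ± 0.43 (interval -0.34 to 1.73, edgeR adjusted p = 0.907). Hspe1 differed by 0.47 ± 0.17 (interval 0.09 to 0.85, edgeR adjusted p = 0.717). The members share libraries and a common order of libraries, so the shared sign is not a set of separate observations. With the knockout libraries alone and the replicate number as a block, Hsp90ab1 passed with the same difference of 0.70 (adjusted p = 0.000725), although same-number knockout libraries did not deviate together over all genes.

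Within the WT group the members had 1 order. WT replicate 1 was the highest and WT replicate 3 the lowest WT library for 10 of 10 members, an order that 18.3% of all genes tested had. In the CD97-deficient group replicate 1 was the highest for 6 members and replicate 3 the lowest for 7, against 33.2% and 32.9% of genes. Hspa4 ran the other way there, highest in replicate 3 and lowest in replicate 1. In the Gα13-deficient group replicate 1 was the highest for 7, against 35.4% of genes. The lowest level there was in replicate 2 for 6 members and in replicate 3 for 4, against 33% and 35.9%. For Hspa1a, Hspa1b, Hspa8 and Hsp90ab1, replicate 1 was the highest library in all 3 groups. That was true of 4.83% of genes tested, and the like share was 3.11% for replicate 2 and 4.09% for replicate 3, where no member was among them. Averaged over the members after scaling each to unit variance over the 9 libraries, the level was 1.18, -0.75 and -1.47 SD in WT, 0.23, -0.27 and -0.62 in the CD97 knockout and 0.95, 0.24 and 0.52 in the Gα13 knockout. WT thus held both the highest and the lowest library of the study on this measure, and the CD97-deficient libraries lay between them.

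**Figure D3:**
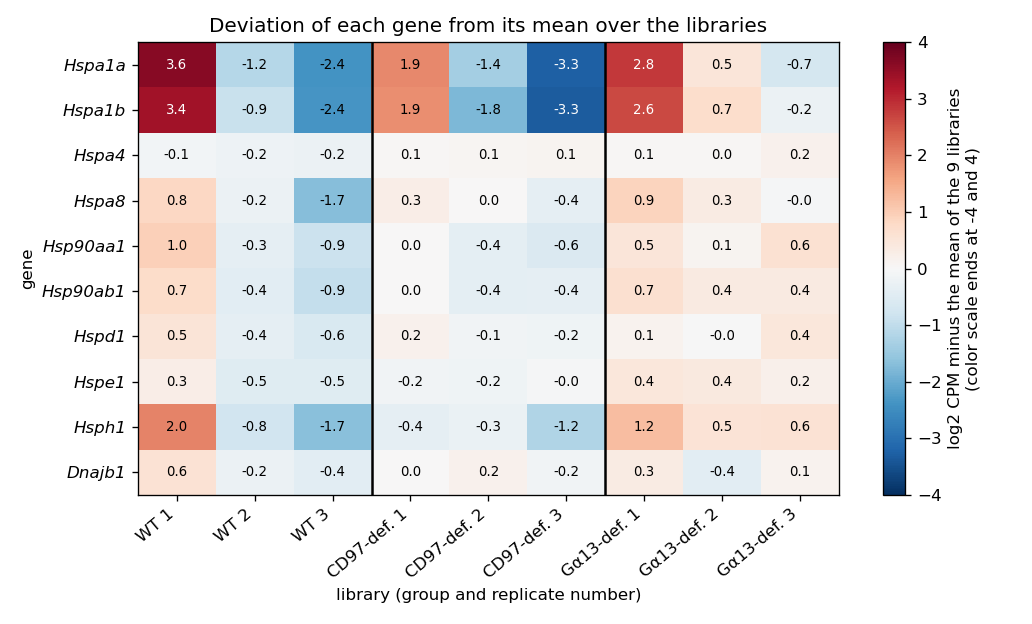
Deviation of log2 CPM from the gene's mean over the 9 libraries, for each member (rows) in each library (columns), with the value printed in each cell. WT replicate 1 is above the mean and WT replicate 3 below it for every member but Hspa4, whose WT libraries are all below its mean.

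The spread within groups was wide for 9 of the 10 members: among genes within 1 log2 unit of the member's own mean level, 90.6% to 99.9% had a smaller spread. For Hspa4 it was 9.26%. Hspa1a had a within-group SD of 2.6 on the log2 scale, and 3 of the 12043 genes tested had a larger one. Hspa1b had an SD of 2.46, exceeded by 9 genes, and Hsph1 one of 1.16, exceeded by 195. The SD was 0.8 for Hspa8, 0.59 for Hsp90aa1 and 0.52 for Hsp90ab1, larger than that of 95%, 89.9% and 87% of genes. Over all genes tested the median SD was 0.2. The SDs of Dnajb1 (0.4), Hspd1 (0.38) and Hspe1 (0.27) were larger than those of 79.5%, 77.8% and 64% of genes. Hspa4, with an SD of 0.06, was on the other side, and 1.93% of genes had a smaller one. Over the 9 libraries the highest level was 128 times the lowest for Hspa1a, 113 times for Hspa1b, 12.6 times for Hsph1 and 1.33 times for Hspa4. The 3 members with the widest spread are all inducible, but the order did not follow inducibility further. The next was the constitutive Hspa8 (0.8), above the inducible Hsp90aa1 (0.59).

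**Figure D4:**
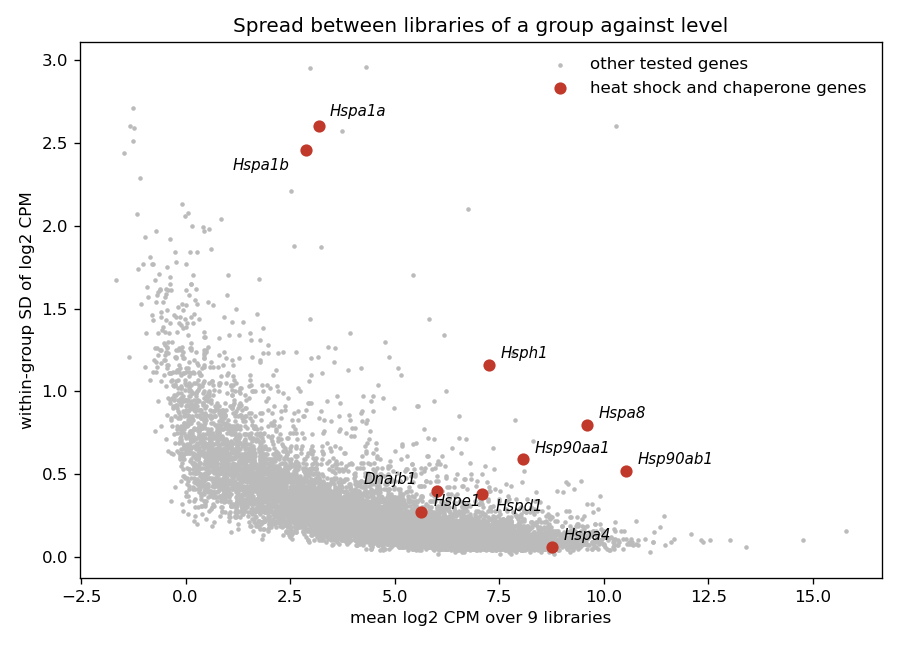
Within-group SD of log2 CPM (vertical axis, log2 units) against the mean log2 CPM over 9 libraries (horizontal axis) for all genes tested, with the members in red. Hspa1a and Hspa1b lie at the top with SDs of 2.6 and 2.46, and Hspa4 lies at the bottom with 0.06.

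Other genes that HSF1 is known to raise had the WT order in part. Of the 12 tested genes of that fixed list that are not members, 8 had WT replicate 1 highest and WT replicate 3 lowest, against 18.3% of genes. Replicate 1 was the highest for 10 in WT, 10 in the Gα13-deficient group and 5 in the CD97-deficient group, against 32.4%, 35.4% and 33.2% of genes. The WT order was also that of 5 of 8 subunits of the chaperonin TRiC, 12 of 28 cochaperones and 10 of 36 J proteins. It was that of 3 of 10 other HSP70, HSP90 and HSP110 genes, 2 of 11 mitochondrial quality control genes and 0 of 5 prefoldin subunits. Some of these lists share genes. Dnaja1, a J protein on the HSF1 list, had 254, 77.7 and 65.1 CPM in WT, 106, 109 and 74.8 in the CD97 knockout and 150, 72.1 and 121 in the Gα13 knockout. The mean deviation of the list was 0.62, -0.2 and -0.47 in WT, -0.07, -0.09 and -0.3 in the CD97 knockout and 0.46, -0.06 and 0.11 in the Gα13 knockout. None of the 12 was called in either comparison with WT. The immediate early genes, which rise within minutes of many stimuli, also differed between libraries. Of these 24 genes, 14 had the WT order, and replicate 1 was the highest for 14 in WT, 10 in the CD97 knockout and 21 in the Gα13 knockout. The shares over all genes are those given above for the HSF1 list.

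The level of the immediate early list followed the members in part. Its mean deviation was 0.39, 0.26 and -0.4 in WT, -0.36, -0.57 and -0.38 in the CD97 knockout and 0.73, 0.16 and 0.18 in the Gα13 knockout, so it also separated the knockouts. The signs differed in WT replicate 2 and CD97-deficient replicate 1, where the members averaged -0.75 and 0.23 SD. With that level in the model, the log2 difference of Hspa1a between the knockouts was -4.72 instead of 1.09 and that against WT in CD97-deficient cells was 2.95 instead of -1.65. Neither passed the threshold. Macrophage markers followed another order, with mean deviations of -0.68, 0.76 and -1 in WT, 1.05, -0.71 and 0.63 in the CD97 knockout and 0.05, 0.26 and -0.36 in the Gα13 knockout. WT replicates 1 and 3, the extremes of the members, were both low in them. What sets the order of libraries was not tested.

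Hsf1 itself was nearly level, with 74.5, 64.6 and 65.9 CPM in WT, 67.1, 59.2 and 63.7 in the CD97 knockout and 81.2, 80.3 and 68.4 in the Gα13 knockout. Its log2 fold changes were -0.11 ± 0.11 and 0.16 ± 0.11 (SE; edgeR adjusted p = 0.559 and 0.359). The RNA level of this factor does not show its activity, which is set after translation. None of the 5 tested heat shock factors and regulators was called in either comparison.

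Cochaperones were among the genes whose pattern was most like that of the members. The likeness is Pearson's r of log2 CPM over the 9 libraries, which share depth and library effects, and it is given as a description. St13 (Hip) encodes a cochaperone of HSP70, and Stip1 (Hop) an adaptor between HSP70 and HSP90. St13 and Stip1 were the most similar to Hsp90ab1 (r = 0.987 and 0.981) and to the mean of the members (0.984 and 0.974). Next came Tagap for Hsp90ab1 (0.973), and Lsm14a (0.959), Sorl1 (0.956) and Zc3h13 (0.953) for the mean. Stip1 had 162, 78.1 and 68.1 CPM in WT, 99.7, 93.6 and 87.9 in the CD97 knockout and 158, 124 and 126 in the Gα13 knockout. Hsp90aa1 was most like Rbm28 (0.975), Sorl1 (0.964) and Fkbp5 (0.962), of which Fkbp5 encodes an HSP90 cochaperone. Hspe1 was most like Ptges3 (0.971), which encodes the HSP90 cochaperone p23, and then like Ep400 (0.96) and N4bp2 (0.951). Dnajb1 was most like Dnaja1 (0.962), and then like Mat2a (0.943) and Med26 (0.928). Hsph1 was most like Sorl1 (0.971) and Stip1 (0.969). Hspa1a and Hspa1b were most like each other (0.993) and then like Casd1 (0.97 and 0.969). Casd1 ranged only from 77.1 to 99.6 CPM, so a like order here was not a like size of change. Hspa8 was most like Tcf20 (0.955), and Hspd1 most like Hnrnpa2b1 (0.947). Hspa4 stood apart from these. It was most like Hjurp (0.987), a histone chaperone of centromeres, Cdc25a (0.982), a phosphatase that drives entry into S phase, and Bpnt1 (0.981).

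Among the other chaperone systems, called genes were most frequent in TRiC. Of its 8 subunits (TRiC is the cytosolic chaperonin that folds actin and tubulin), 2 were called higher in CD97-deficient cells and 3 in Gα13-deficient cells, against 4.84% and 5.74% of all genes, and none lower. The medians were 0.21 and 0.32 on the log2 scale. Cct2 had 249, 230 and 219 CPM in WT, 290, 279 and 287 in the CD97 knockout and 291, 281 and 300 in the Gα13 knockout, with both knockouts above WT. It rose by 0.29 (edgeR adjusted p = 0.0282) and 0.32 (adjusted p = 0.0143), calls held in 9 of 20 and 19 of 21 alternatives. Tcp1 rose by 0.34 in both comparisons (edgeR adjusted p = 0.0394 and 0.032), held in 8 of 20 and 13 of 21 alternatives. Cct5 rose by 0.33 in Gα13-deficient cells alone (edgeR adjusted p = 0.0333), held in 10 of 21 alternatives, and had 0.28 (adjusted p = 0.0699) in CD97-deficient cells. Between the knockouts none of the 8 subunits was called.

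Of the 28 cochaperones tested, none was called in CD97-deficient cells, against 8.53% of all genes, and 1 was higher in Gα13-deficient cells, against 11% called in all. This was Cdc37, the adaptor that brings kinases to HSP90, with 0.37 on the log2 scale (edgeR adjusted p = 0.0363, held in 14 of 21 alternatives). Bag1, an HSP70 exchange factor, had 0.35 and 0.33 (adjusted p = 0.0626 and 0.0674), just outside the threshold. Of 10 other tested HSP70, HSP90 and HSP110 genes, none was called in CD97-deficient cells and Hyou1, an exchange factor of the endoplasmic reticulum, was higher in Gα13-deficient cells by 0.39 (edgeR adjusted p = 0.0461, held in 7 of 21 alternatives). Hspa5, the HSP70 of that compartment (BiP), had 0.37 (adjusted p = 0.0818) there. Of 36 J proteins tested, Dnajc22 alone was called in each comparison, and it was lower; the shares over all genes are those just given. It had 10.3, 10.7 and 13.4 CPM in WT, 4.38, 5.86 and 2.91 in the CD97 knockout and 4.66, 2.09 and 2.64 in the Gα13 knockout. Dnajc22 fell by 1.40 (edgeR adjusted p = 0.0139) and 1.85 (adjusted p = 0.00208), held in 16 of 20 and 21 of 21 alternatives. None of the 5 prefoldin subunits or of the 11 mitochondrial quality control genes was called in either comparison.

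Levels were compared between members per kilobase of annotated exon (CPM per kb). In WT the medians ran from 373 for Hsp90ab1 through 152 for Hspa8, 68.9 for Hspa4, 53.4 for Hsp90aa1, 40.1 for Hspd1, 24.4 for Hspe1, 16.9 for Dnajb1 and 12.2 for Hsph1 to 1.41 for Hspa1b and 1.38 for Hspa1a. Among the 9 pairs of neighbours in that order, 0 were separated in WT, since the WT libraries of each pair overlapped. In CD97-deficient cells 6 of 9 pairs of neighbours were separated and in Gα13-deficient cells 5 of 9. Hsp90ab1 was the highest member by median in all groups, with 387 in CD97-deficient and 637 in Gα13-deficient cells, and in both knockouts its libraries lay above all those of Hspa8, the next member. The inducible pair was the lowest by median in all groups, with Hspa1a at 1.19 and Hspa1b at 0.731 in CD97-deficient cells and both at 4.28 in Gα13-deficient cells. In WT replicate 1 alone Hspa1a reached 38.8, more than the 29.8 of Dnajb1 at its WT highest. By median in Gα13-deficient cells Hsp90aa1 (95.4) stood above Hspa4 (82.3) and Hsph1 (31.2) above Dnajb1 (22), where the order of the WT medians was the reverse. The WT means were not reversed, with 74.0 for Hsp90aa1 and 69.9 for Hspa4, and 33.7 for Hsph1 and 20.5 for Dnajb1. In WT the libraries of both pairs overlapped, and in Gα13-deficient cells those of Hsp90aa1 and Hspa4 did.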

How the data were processed

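RNA sequencing of 9 splenic cDC2 libraries was analysed from the authors' deposited table of raw counts per gene. The submitters' processing notes name STAR, HTSeq, DESeq2 and mm10 and give no versions. The table lists 14209 genes, each with at least 10 counts over all libraries, and holds no column of another sample. Groups and replicate numbers follow the sample titles, and the WT columns, numbered differently, were matched through the source names. Separate mice for the libraries of a group are not stated. WT and the Gα13-deficient group each held libraries of both sex patterns, so neither came from the same mouse throughout. Between libraries of the same pattern, the spread that the p-values reflect may be technical.

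The test was edgeR 4.0.16 in R 4.3.3 (TMM factors, default expression filter by group, robust quasi-likelihood F-tests) on all 9 libraries, with genotype as the factor. This left 12043 genes and gave a common biological coefficient of variation of 0.15. Adjusted p is by Benjamini-Hochberg over all genes tested, called under 0.05 whatever the fold. Standard errors come from the F statistic, and log2 CPM used a prior count of 0.5. The test was tried on simulated counts with known changes. Mean deviations of a list are the mean over its tested genes of log2 CPM minus the gene's mean over the 9 libraries. Positions and exon lengths are from GENCODE vM21 (mm10) and promoter windows from RefSeq (GRCm38.p6).

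The members and the gene lists were chosen with earlier results of these data known. The text names all members, the targeted genes, from each list discussed up to 4 genes with the smallest p in the comparisons with WT and the called ones where there were 6 or fewer, and for each member the 3 most similar genes with a mean log2 CPM of at least 2 (5 for the mean of the members). Not all genes that this allows are named. No label ties a replicate number to a shared animal or day. Over all genes, same-number libraries of WT and the Gα13-deficient group deviated together (r = 0.11 to 0.157 over genes, 3 of 3 pairs above 0.1), so those numbers may be paired. The main test left them unpaired, and the replicate number as a block is given as an alternative. For CD97-deficient and WT (-0.296 to 0.048) and for the knockouts (-0.077 to 0.022) no pair was above 0.1. The alternatives were RLE size factors, library totals, no filter, DESeq2 1.42.0, the compared groups alone, the replicate number as a block, the sex pattern, macrophage level or immediate early level in the model, the male-pattern libraries alone and each library left out. Those chosen after the data had been seen were the 6 libraries other than replicate 1 of each group, and Hspa1a and Hspa1b summed.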

Additional observations from a re-analysis of the deposited data

How the results depend on the processing

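Only Hspa1a and Hspa1b had under 10 counts in some libraries, and they also had the widest spread within groups (SDs of 2.6 and 2.46 on the log2 scale). The precision of the others was set by the spread between 3 libraries. RLE size factors changed no member's call or direction. The number of members called in CD97-deficient cells fell from 1 to 0 with no filter on low counts, the compared groups alone, the replicate block over all libraries, the sex pattern, macrophage level or immediate early level in the model, and in the 6 libraries other than replicate 1. It was 2 with the replicate block in the compared groups alone. In Gα13-deficient cells it was 2 with library totals, DESeq2 and the replicate block over all libraries, 0 with the compared groups alone and the male-pattern libraries alone, and 3 in the 6 libraries. Between the knockouts it was 0 except for 1 with the replicate block in the knockouts alone. Leaving out 1 library gave 0 to 1 members called in CD97-deficient cells, 0 to 4 in Gα13-deficient cells, where 4 was without WT replicate 1, and 0 to 0 between the knockouts.

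Of all genes, 1027 were called in CD97-deficient cells, and this fell to 222, 598 and 272 with the sex pattern, macrophage level and immediate early level in the model and to 226 in the 6 libraries. It ranged from 364 to 1271 with 1 library left out (472 without WT replicate 1, 529 without CD97-deficient replicate 1, 364 without CD97-deficient replicate 3). In Gα13-deficient cells 1322 genes were called, 611 in the male-pattern libraries, 553 in the 6 libraries, and 693 to 1459 with 1 library left out (the lowest without Gα13-deficient replicate 2). Between the knockouts the count was 6. It was 11 with no filter, 57 by DESeq2, 53 in the knockouts alone, 14 with the replicate block over all libraries, 73 with that block in the knockouts alone, 14 with the macrophage level, and 4 to 25 with 1 library left out. The cause of these shifts was not tested.

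Among fitted log2 values that changed sign, none with a call, those of CD97-deficient cells were as follows. Dnajb1 had 0.02 with library totals, 0.03 and 0.03 with the replicate block over all and over the compared libraries, 0.34 with the sex pattern, 0.07 with the macrophage level, 0.46 with the immediate early level and 0.34 in the 6 libraries. With the sex pattern Hspa1a had 0.54, Hspa1b 0.29 and Hsp90ab1 0.05. With the immediate early level Hspa1a had 2.95, Hspa1b 2.61, Hsp90ab1 0.62, Hsp90aa1 0.4 and Hsph1 0.72. In the 6 libraries Hsp90ab1 had 0.28, Hsp90aa1 0.1 and Hsph1 0.48, and with the macrophage level Hspa8 had -0.02. With 1 library left out, the ranges were -4.3 to 2.13 for Hspa1a, -4.42 to 1.85 for Hspa1b, -0.74 to 0.28 for Hsp90aa1, -0.51 to 0.41 for Hsp90ab1 and -1.75 to 0.58 for Hsph1, all turning without WT replicate 1. They were -0.22 to 0.33 for Dnajb1, -0.39 to 0.79 for Hspa8, -0.18 to 0.43 for Hspd1 and -0.07 to 0.36 for Hspe1.

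In Gα13-deficient cells Hspa1a had 0.38 and 0.29 with the replicate block over all and over the compared libraries and 1.59 in the 6 libraries, and Hspa1b 0.62, 0.46 and 1.71. Dnajb1 had -0.01 with the sex pattern and -0.2 with the immediate early level. Hsph1 had -0.15 with the latter and -0.17 in the male-pattern libraries. The 6 libraries called Hsp90ab1 (1.01, edgeR adjusted p = 0.0065), Hspd1 (0.71, adjusted p = 0.0208) and Hspe1 (0.79, adjusted p = 0.00784). The ranges with 1 library left out were -2.25 to 3.22 for Hspa1a, -1.67 to 2.95 for Hspa1b, -0.37 to 1.96 for Hsph1, -0.17 to 0.39 for Dnajb1 and -0.04 to 1.0 for Hsp90aa1. Between the knockouts the sex pattern gave -0.78 for Hspa1a, -0.41 for Hspa1b, -0.02 for Hspa4, -0.02 for Hspd1 and -0.35 for Dnajb1. The immediate early level gave -4.72 for Hspa1a, -3.96 for Hspa1b, -0.02 for Hspa4, -1.38 for Hspa8, -0.33 for Hsp90aa1, -0.37 for Hsp90ab1, -0.28 for Hspd1, -0.87 for Hsph1 and -0.65 for Dnajb1. Dnajb1 also had -0.01 with the macrophage level and -0.12 in the 6 libraries. With 1 library left out the ranges were -0.12 to 0.23 for Dnajb1, -0.6 to 3.74 for Hspa1a, -0.19 to 4.03 for Hspa1b and -0.03 to 0.04 for Hspa4. The fitted values over all alternatives also cover Tcp1, Cct2, Cct5, Hyou1, Cdc37, Dnajc22 and Gna13, each where it was called against WT. Of these 817 values, 634 kept their sign and their side of the threshold, 94 lost a call, 13 gained one and 76 changed sign. Among the members only Hspa4 lost a call, in 16 alternatives for CD97-deficient and 9 for Gα13-deficient cells, and the other losses were in the genes just named. The replicate block changed no other member's call than those of Hspa4, Hspe1, Hspa1a, Hspa1b and Hsp90ab1 given above.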
